A study of Rattus norvegicus with 28 samples.

Results

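Brain RNA of female rats of the inbred strains SHR/OlaIpcv and BN-Lx/Cub was compared at pre-estrus, the stage of the estrous cycle labelled as preceding estrus. The comparison holds 8 whole-brain libraries, 4 from SHR and 4 from BN-Lx, of the 28 libraries in the study, and they were chosen by the strain and stage in their labels alone. The study also holds females at estrus and post-estrus and males of both strains. The labels call the replicates biological and each library comes from a whole brain, so each was taken as 1 animal. BN-Lx replicates 7a and 7b share a replicate number apart from the letter, so their being separate animals is an assumption. No treatment is named for any group, the ages are not given in the labels, and the protocol text speaks of alcohol-naive male rats where the sample labels name females. The sample labels were followed.

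SHR, the spontaneously hypertensive rat, is an inbred line selected for high blood pressure and widely used as a model of hypertension. BN-Lx is a Brown Norway line that carries a limb malformation mutation, and the pair are the parents of a well-known panel of recombinant inbred strains. Animals of an inbred strain are nearly identical genetically, so a strain contrast sets one fixed set of alleles against another. In the days before ovulation, ovarian estrogen rises, and brain cells with steroid receptors respond to it. The question at this stage is which brain RNAs differ with the genetic background.

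The deposited tables give Ensembl gene identifiers and pair none of them with a gene name, and 0 of the identifiers could be matched to a symbol in the reference table at hand. Genes are therefore described in groups by level, length and size of the difference, and the 2 most different genes in each direction are given by identifier. For the same reason the tissue label could not be checked against brain marker genes, and no promoter sequence is shown.

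The 8 libraries held 43074383 to 69492123 gene counts each, and 17972 to 20192 genes had at least 1 count in a library. The libraries differed among themselves in ways that the strain label does not cover. Each sample description ends in b35 or b37, a suffix whose meaning is not stated, and each strain has 2 libraries of each kind at pre-estrus. BN-Lx replicates 3 and 7a, the b35 libraries of that strain, stood apart from the rest. On the first principal component of log2 CPM (counts scaled to the library size), which held 36.5% of the variance, they lay at -71.8 and -72.9. The other BN-Lx libraries, replicates 5 and 7b, lay at 2.3 and -7.7, closer to the SHR b37 libraries (replicates 11 and 12) at 22.9 and 18.7. The SHR b35 libraries, replicates 10 and 8, lay at the opposite end, at 55.1 and 53.5. All SHR values thus exceeded all BN-Lx values, and within each suffix the gap was wider for b35. The root mean square distance between libraries, in log2 CPM, was 0.52 to 0.94 among BN-Lx libraries, 0.6 to 0.77 among SHR libraries and 0.74 to 1.13 between the strains, with medians of 0.91, 0.71 and 0.87. The wide spread in BN-Lx came with replicates 3 and 7a, which are in each pair at 0.88 or more, while replicates 5 and 7b lay 0.52 apart, nearer than any pair between the strains. All 4 SHR libraries carry a single number in their description, 201066. BN-Lx replicates 5 and 7b share another number, and replicates 3 and 7a carry 1 each of their own. What the number stands for is unknown. At pre-estrus none occurs in both strains, so it cannot be told apart from strain.

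The b35 libraries were also at the extremes of RNA make-up. The most abundant gene took 33.7%, 26.7%, 34.7% and 27.7% of the gene counts in BN-Lx replicates 3, 5, 7a and 7b, and 17.7%, 26.1%, 27.7% and 20% in SHR replicates 10, 11, 12 and 8. The b37 libraries of both strains were alike in this, while the b35 libraries lay apart in opposite directions. The 8 most abundant genes together took 48.3%, 43.8%, 49% and 45.3% in the same BN-Lx libraries and 39.6%, 42.1%, 43% and 37.7% in the SHR libraries. These values did not overlap between strains. The means were 46.6% ± 2.49 in BN-Lx and 40.6% ± 2.41 in SHR (SD, n = 4 each, two-sided exact permutation p = 0.0286, the smallest that 4 against 4 allow, and 0.0858 after adjustment over 6 library measures). SHR minus BN-Lx gave -10.01 percentage points in the b35 set and -1.983 in the b37 set. For the most abundant gene alone it gave -15.39 points in the b35 set and -0.307 in the b37 set (both sets together, exact permutation p = 0.0571, adjusted 0.114). Spike-in RNAs, which are synthetic controls, took 1.82% to 4.35% of the counts and the strains overlapped in them (exact permutation p = 0.314, adjusted 0.471). The strains overlapped likewise in total gene counts (exact permutation p = 0.486, adjusted 0.486) and in detected genes (exact permutation p = 0.4, adjusted 0.48). Both measures differed in opposite directions by suffix. SHR minus BN-Lx was 19080000 gene counts in b35 and -8456000 in b37, and 1800 detected genes in b35 and -319.5 in b37. None of the 8 most abundant genes was called different between strains in the gene-wise test below. The one with the most counts had a log2 fold change of -0.59 ± 0.25 (SE, edgeR adjusted p = 0.358). Ranks 3 and 4, of 300 bases each, had the same mean share, 3.71% in SHR and 3.01% in BN-Lx.

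**Figure D1:**
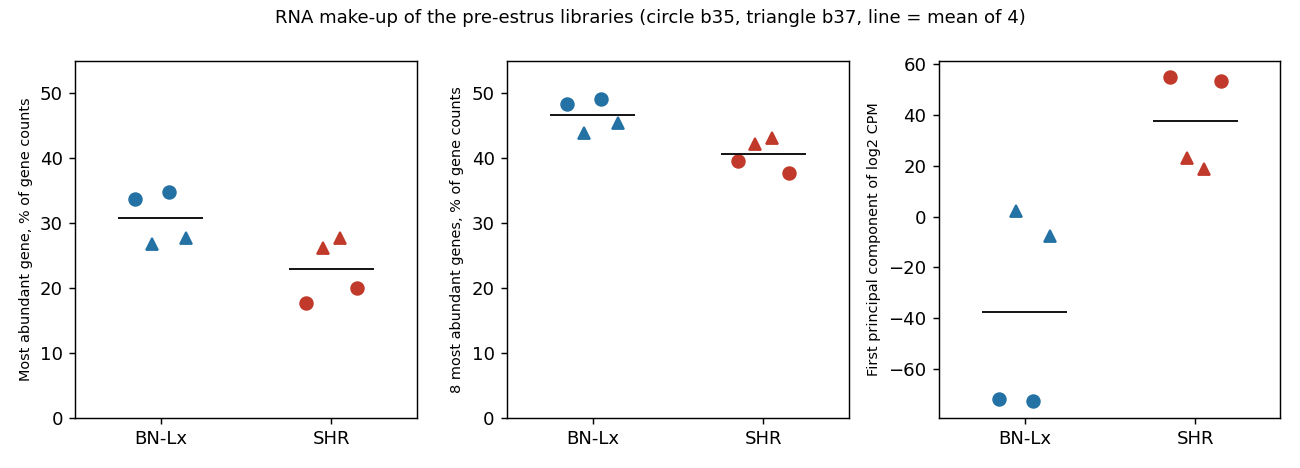
Share of gene counts in the most abundant gene, in the 8 most abundant genes (percent), and position on the first principal component, for each pre-estrus library by strain. Circles are b35 and triangles b37 libraries, and lines are means of 4. The b35 libraries form the ends in each panel, from 33.7% and 34.7% in BN-Lx to 17.7% and 20% in SHR for the most abundant gene.

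Of 18134 genes tested, 453 differed between SHR and BN-Lx brains at pre-estrus at an adjusted p under 0.05, which is 2.5% of the genes tested. Higher in SHR were 217 (1.2%) and lower 236 (1.3%). The test was edgeR's quasi-likelihood test in a fit of all 28 libraries with a term for each group and for the suffix, with Benjamini-Hochberg adjustment. No SHR animal overlapped the BN-Lx range for 427 of the called genes (94.3%), against 1309 of all genes tested (7.22%, with SHR above for 3.81% and below for 3.41%). The test measures the difference against the same spread, so this count is a description. The called genes differed by a median of 1.27 (log2), with a lower quartile of 0.74 and an upper one of 3.05. The median was 1.13 for genes higher in SHR and 1.45 for genes lower in SHR. Across all genes tested the median log2 fold change was 0.02. The number called was 223 when the 8 pre-estrus libraries were fitted without the others, 699 with DESeq2 and 733 with limma voom with quality weights. It was 210 without BN-Lx replicates 3 and 7a, of which 191 were among the 453.

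The called genes covered a wide range of sizes. A difference of over 1.5-fold was found for 379 of them, over 2-fold for 271 (124 higher and 147 lower in SHR), over 4-fold for 154 (62 higher, 92 lower) and over 16-fold for 86 (46 higher, 40 lower). The directions were uneven between 4- and 16-fold, where 16 genes were higher and 52 lower in SHR. Of these 68 genes, 36 were below 1 CPM, and the split was not tested. The classes on either side leaned the other way, with 62 higher and 55 lower between 2- and 4-fold and 46 and 40 over 16-fold. Below 2-fold they were near equal, with 93 higher and 89 lower. Small differences could be called only where the error was small, which is at higher levels. The median level was 15.8 CPM for called genes that differed by up to 2-fold and 0.543 CPM for those that differed by over 16-fold, of which 50 were below 1 CPM.

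**Figure D2:**
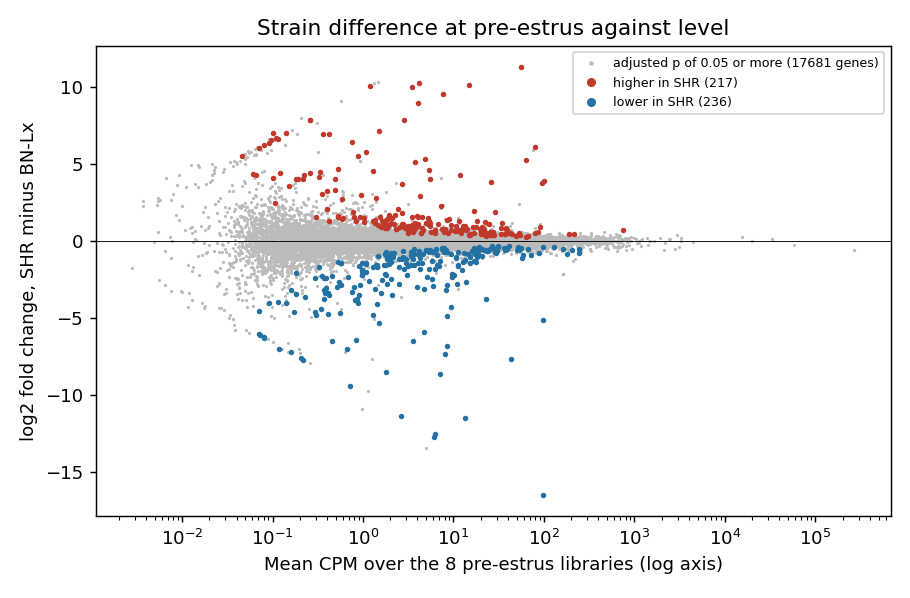
Log2 fold change (SHR minus BN-Lx) against mean CPM over the 8 pre-estrus libraries (log axis), 1 point per gene tested. Coloured points are the 217 genes higher and 236 genes lower in SHR at an adjusted p under 0.05. Called genes lie on both sides, and those at low levels have the larger differences, with a median of 3.8 under 1 CPM and 0.65 over 64 CPM.

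The genes with the most extreme differences were expressed in one strain and at or near 0 counts in the other. Among called genes that averaged 1 CPM or more and had no overlap between the strains, which were 165 higher and 161 lower in SHR, the 2 at each end were taken. ENSRNOG00000055352 is listed with 1 transcript of 164 bases. Its counts were 10817, 4760, 8837 and 4493 in SHR replicates 10, 11, 12 and 8, and 6, 1, 0 and 2 in BN-Lx replicates 3, 5, 7a and 7b. Each SHR animal thus had at least 4493 counts and no BN-Lx animal had more than 6. SHR animals averaged 111 ± 34.6 CPM (SD, n = 4) and BN-Lx animals 0.0451 ± 0.0605 CPM (SD, n = 4). The log2 fold change was 11.3 ± 0.86 (SE, edgeR adjusted p = 1.38e-08), and 12.34 without BN-Lx replicate 3. Per length, at 2150 TPM (a level scaled by transcript length) in SHR, it was above 99.8% of the genes tested, as a value for a very short RNA whose effective length is itself an estimate.

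ENSRNOG00000019050, with 1 transcript of 2068 bases, was an RNA of middling level. It had 673, 264, 801 and 458 counts in SHR replicates 10, 11, 12 and 8. In BN-Lx, replicate 7b had 1 count and replicates 3, 5 and 7a had 0. SHR averaged 8.35 ± 2.83 CPM and BN-Lx 0.00381 ± 0.00761 CPM (SD, n = 4 each, edgeR adjusted p = 1.15e-07). The ratio of the summed levels was 1820, with a 95% counting interval of 326 to 71900 that rests on the single BN-Lx count and covers counting error only. Without BN-Lx replicate 7b the difference is a bound, at least 72.2-fold higher in SHR (floor of 3 counts per library). Its TPM in SHR was above 47.7% of the genes tested.

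In the other direction, ENSRNOG00000028449, with 1 transcript of 689 bases, was abundant in BN-Lx. It had 10204, 10147, 9153 and 9735 counts in BN-Lx replicates 3, 5, 7a and 7b and 0 in every SHR pre-estrus library. The level was 193 ± 44.6 CPM in BN-Lx (SD, n = 4), and with a floor of 3 counts per library it was at least 2340-fold lower in SHR (edgeR adjusted p = 9.39e-11). At 194 TPM in BN-Lx it was above 99.1% of the genes tested there. ENSRNOG00000059663, with 1 transcript of 1818 bases, had 610, 726, 508 and 766 counts in the same BN-Lx libraries and 0 in every SHR library. The BN-Lx animals varied little in it, at 12.5 ± 1.02 CPM (SD, n = 4), and it was at least 183-fold lower in SHR (edgeR adjusted p = 5.06e-09). For all 4 genes the gap between the strains was far wider than that between b35 and b37 libraries of the expressing strain.

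**Figure D3:**
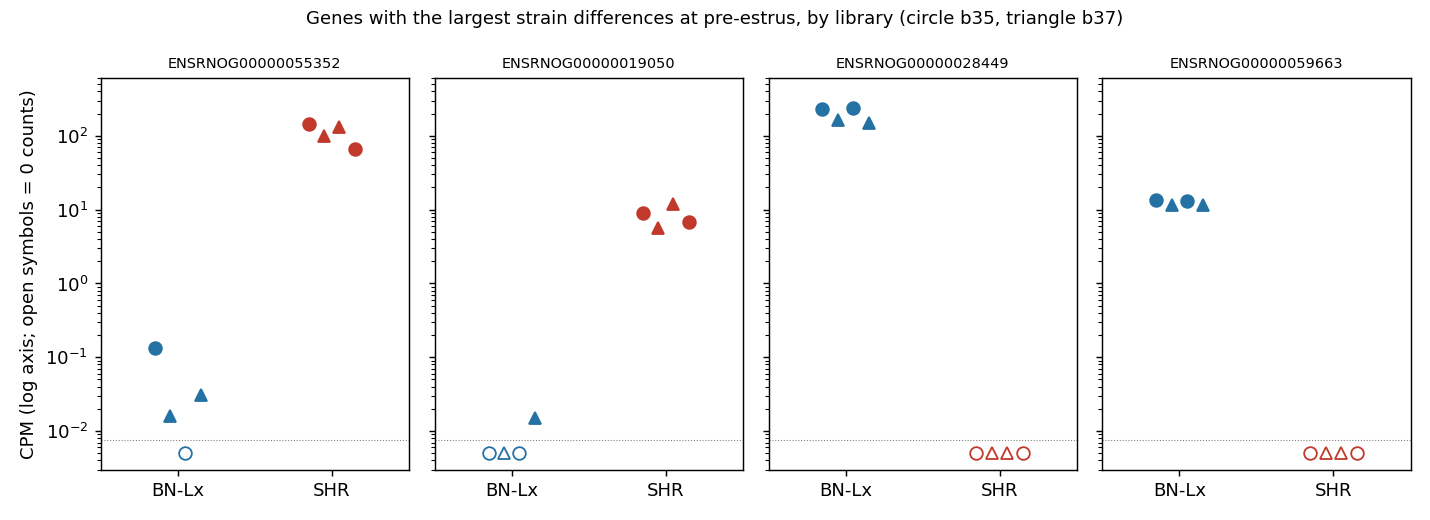
CPM (log axis) of the 2 genes at each end of the strain difference, in each pre-estrus library. Circles are b35 and triangles b37 libraries, and open symbols below the dotted line are libraries with 0 counts. SHR values reach 67.2 to 144 CPM for ENSRNOG00000055352, and BN-Lx values 148 to 235 CPM for ENSRNOG00000028449, with no overlap between the strains in any panel.

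ENSRNOG00000019050, ENSRNOG00000028449 and ENSRNOG00000059663 belong to a wider group. ENSRNOG00000055352 falls outside it, because it had 0.134 CPM in BN-Lx replicate 3, above the limit of 0.1 CPM used here. At pre-estrus, 15 genes averaged 1 CPM or more in BN-Lx and less than 0.1 CPM in each SHR library, and 8 of them had no count in any of the 4 SHR libraries. In the reverse direction 15 genes were near absent in BN-Lx, and 4 of these had no count in the 4 BN-Lx libraries. Of the former 10 and of the latter 12 were called (background 2.5%), and since the definition itself uses the strain difference, these counts are a description. Their levels in the expressing strain were mostly low, with a median of 2.49 CPM and a highest value of 193 CPM for genes near absent in SHR. The median and highest value were 2.9 and 29.9 CPM for genes near absent in BN-Lx. All genes tested had a median of 8.78 CPM. That value is not a like measure, since it uses means over both strains and has no minimum of 1 CPM. The genes were short and simple in their annotation. Their median transcript lengths were 834 and 807 bases against 2041 for all genes tested, and 14 of 15 in each direction had 1 annotated transcript (93.3%), as did 73.2% of all genes tested.

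The libraries outside pre-estrus, which the definition did not use, give a further reading of this group. They include 2 male libraries of each strain. Some carry the same description number as pre-estrus libraries of their strain, and what that number stands for is unknown. Of the 15 genes near absent in SHR, 6 stayed below 0.1 CPM in each of the 10 other SHR libraries while averaging at least 1 CPM in the 10 other BN-Lx libraries. Of the 15 near absent in BN-Lx, 6 likewise stayed below 0.1 CPM in each of the 10 other BN-Lx libraries while averaging at least 1 CPM in the other SHR libraries. The remaining genes did not hold this pattern throughout, which can rest on a few counts. ENSRNOG00000028449 missed it through an SHR male library with 6 counts (0.115 CPM), while the other BN-Lx groups averaged 133 to 166 CPM. Clear expression was seen for fewer: 3 of the genes near absent in SHR averaged at least 1 CPM in the other SHR libraries. Of those near absent in BN-Lx, 2 did so in the other BN-Lx libraries.

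Called genes were not spread evenly over levels and lengths. They made up 2.48% of 4154 genes under 1 CPM, 4.57% of 2627 genes at 1 to 4 CPM, 2.64% of 4506 at 4 to 16 CPM, 1.85% of 4803 at 16 to 64 CPM and 1.08% of 2044 over 64 CPM. The share fell above 4 CPM although the tests were more precise there, with a median standard error of 0.745 under 1 CPM and 0.136 over 64 CPM on the log2 scale. Few abundant brain RNAs were called, which does not show that the others were equal between the strains. The 22 called genes over 64 CPM, 10 higher and 12 lower in SHR, had a median difference of 0.65, against 3.8 for the 103 called genes under 1 CPM. Among transcripts of up to 200 bases 4.84% of 372 genes were called, and the share was 4.97% of 825 from there up to 500 bases, 3.81% of 1915 up to 1000, 2.3% of 5728 up to 2000, 2.11% of 6496 up to 4000 and 1.86% of 2798 over 4000 bases. Level and length go together in these libraries, with a median level of 0.435 CPM for the shortest class and 27.4 CPM for the longest. Among genes of at least 1 CPM, 14 of 140 genes of up to 200 bases were called (10%), 5 higher and 9 lower in SHR, against 336 of 13840 longer genes (2.43%). The short called genes had a median difference of 7.04 on the log2 scale and the longer ones 0.92. Genes with a single annotated transcript were called in 2.67% of 13278 cases, and genes with 2 transcripts in 1.85% of 3506.

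**Figure D4:**
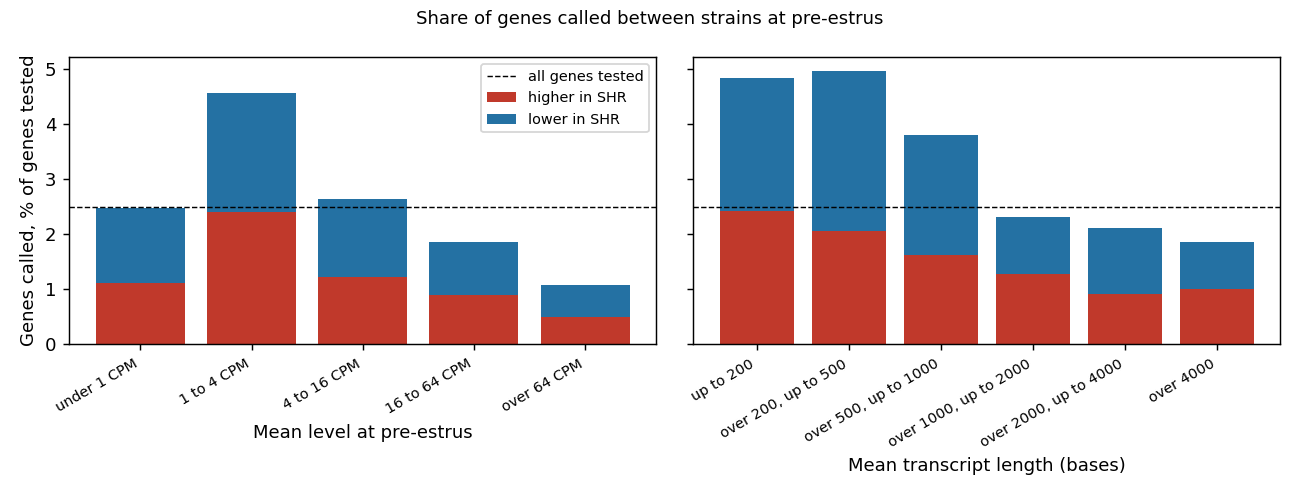
Percent of genes tested that were called between strains at pre-estrus, by mean level (CPM) and by mean transcript length (bases). Bars are split into genes higher and lower in SHR, and the dashed line is the 2.5% of all genes tested. The share falls from 4.57% at 1 to 4 CPM to 1.08% over 64 CPM, and is 4.84% for the shortest and 1.86% for the longest class.

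Transcript use was described without a test. The authors' transcript length per gene, an average weighted by the estimated share of each transcript, was compared for 4158 genes with at least 2 annotated transcripts and at least 1 CPM. The lengths of the 4 SHR and 4 BN-Lx libraries did not overlap for 223 of these (5.36%). For 38 (0.914%) the means differed by over 10% as well, with a longer average in SHR for 15 and a shorter one for 23. Of the 86 such genes that were called in level, 4 were among the 38 (4.65%), 2 longer and 2 shorter in SHR, and of the 4072 not called, 34 were (0.835%). The lengths and the counts come from the same reads, so they are not independent measures.

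The pre-estrus difference was set beside the strain differences at estrus and post-estrus, which come from other animals. At estrus 406 genes were called between strains (2.24%) and at post-estrus 454 (2.5%). Of the 453 pre-estrus genes, 283 were called at estrus (62.5% of the pre-estrus and 69.7% of the estrus list) and 289 at post-estrus (63.8% and 63.7%), and all of these had the same direction. In all 3 stages 240 genes were called. The direction at estrus was that of pre-estrus for 448 of the 453 genes (98.9%) and at post-estrus for 450 (99.3%), while among genes not called at pre-estrus it was the same for 53.4% and 69.2%. The comparisons share no library, but they share the error estimate and the scaling of the single fit. Some libraries of the other stages also carry description numbers found at pre-estrus in their strain. The estimates at the other stages were somewhat smaller, with a median ratio to the pre-estrus log2 fold change of 0.87 at estrus and 0.902 at post-estrus. The genes were chosen on their pre-estrus values, which favours larger values there.

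The share of genes called again is given by size of the difference, with no test between the classes. Of the 86 genes with over 16-fold differences, 76.7% were called at estrus and 76.7% at post-estrus, against 56.6% and 54.4% of the 182 genes with differences of up to 2-fold. Of the 117 genes between 2- and 4-fold the shares were 52.1% and 59.8%, and of the 68 genes between 4- and 16-fold 77.9% and 79.4%. When each pre-estrus library was left out in turn, 250 of the 453 genes (55.2%) were called in all 8 fits, from 40.7% of those up to 2-fold to 73.3% of those over 16-fold.

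The 4 genes at the ends kept their pattern at the other stages. ENSRNOG00000055352 had a log2 fold change of 12.93 ± 0.94 at estrus and 11.17 ± 0.86 at post-estrus (SE, edgeR adjusted p = 6.42e-09 and 1.45e-08). ENSRNOG00000019050 had 8.08 ± 0.7 and 11.56 ± 0.94 (SE, edgeR adjusted p = 4.15e-07 and 1.87e-07). Its highest BN-Lx count at estrus was 4, and at post-estrus the 4 BN-Lx libraries had 0 counts, so that the size there depends on the prior count. ENSRNOG00000028449 had 159 ± 66.3 CPM in BN-Lx at estrus and 166 ± 47.6 CPM at post-estrus (SD, n = 4 each), with at most 4 and 3 counts in an SHR library. ENSRNOG00000059663 had 11.1 ± 2.81 and 11.6 ± 3.19 CPM in BN-Lx at these stages (SD, n = 4 each) and 0 counts in each of the SHR libraries.

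Whether a strain difference at pre-estrus differs from that at the other stages was tested directly, as the pre-estrus difference minus the mean of those at estrus and post-estrus. No gene passed this test in edgeR (0 of 18134, 0%, smallest adjusted p = 0.856), with 328 genes (1.81%) at an unadjusted p under 0.05. DESeq2 called 7 genes and limma 0. Of the 453 genes called at pre-estrus, 34 (7.51%) had an unadjusted p under 0.05. The 121 genes called at pre-estrus but at neither other stage are therefore not shown to be particular to pre-estrus, and 115 of them had the same direction at both other stages. The precision limits the statement: among 13980 genes averaging 1 CPM or more, the 95% interval of the difference between stages lay within 2-fold in either direction for 81.3%, and for 72% of the 350 called genes among them.

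The suffix sets within pre-estrus gave a second comparison of separate libraries, taken as separate animals. The b35 libraries of all groups and the b37 libraries of all groups were fitted apart, each with 2 SHR and 2 BN-Lx animals at pre-estrus. The b35 libraries called 2488 genes, 1772 higher and 716 lower in SHR, and the b37 libraries called 88, 37 higher and 51 lower. Of the 88 genes called with b37 alone, 78 were called with b35 alone, all in the same direction, and 87 (98.9%) had the same direction in b35. The reverse did not hold. Of the 2486 genes called with b35 that were tested in both sets, 776 (31.2%) had the same direction in b37. For the 1772 genes higher in SHR with b35, the median log2 fold change was 0.91 in b35 and -0.25 in b37, and 23.9% had the same direction. For the 714 lower ones, it was -0.75 in b35 and 0 in b37. Over all 17756 genes tested in both sets, 34.6% had the same direction.

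Of the 453 genes, 450 were tested in both sets, and these 450 had the same direction in b35 and b37, with a median size of 1.42 and 1.11 on the log2 scale. These genes were called using both sets, which favours a shared direction, so the count is a description. A test of the difference in the strain contrast between b35 and b37 libraries at pre-estrus called 0 of 18134 genes in edgeR (0%, smallest adjusted p = 0.0691), with 5015 genes (27.7%) at an unadjusted p under 0.05. Among the 453 genes, 58 (12.8%) were under that value. A gene whose strain difference reverses between the sets is unlikely to be called with both together. The lower share is therefore also a description. The wide b35 difference moved with several library measures. SHR minus BN-Lx for the share of the most abundant gene was -15.39 percentage points in b35 and -0.307 in b37. For total gene counts it was 19080000 in b35 and -8456000 in b37, and for detected genes 1800 and -319.5. The part of these measures in the b35 difference was not tested. With the share of the 8 most abundant genes as a covariate in the fit of all libraries, 508 genes were called, of which 262 were among the 453.

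**Figure D5:**
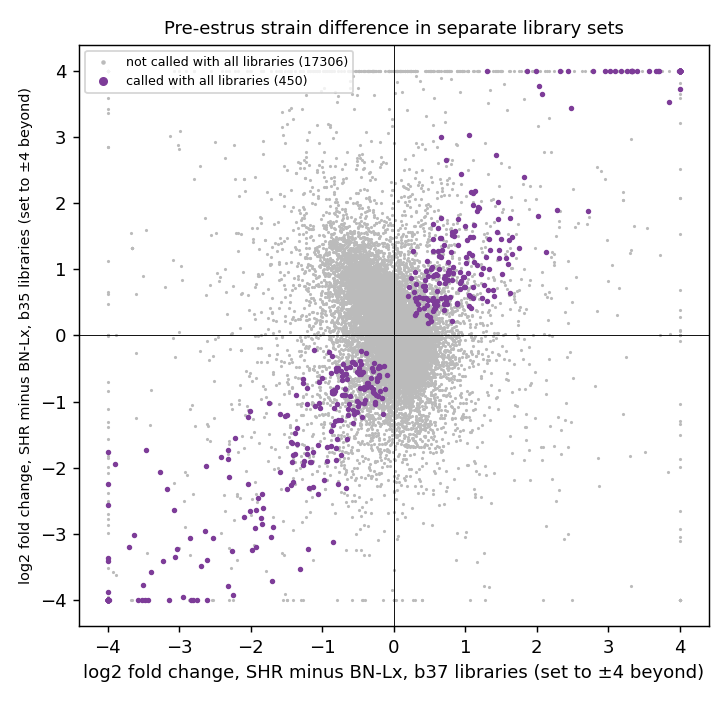
Log2 fold change (SHR minus BN-Lx at pre-estrus) from the b35 libraries against that from the b37 libraries, 1 point per gene, with values beyond 4 drawn at 4 in either direction. Purple points are the 450 genes called with all libraries and tested in both sets. They lie in the quadrants of shared direction, while most other points lie in the quadrants of opposite direction.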

How the data were processed

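Total RNA of 28 whole rat brains was made into stranded libraries after Ribo-Zero removal of ribosomal RNA and sequenced as paired reads, per the labels' protocols. Cutadapt and RSEM were used, per the submitters' processing notes. For genome build, annotation and tool versions, nothing is given in the sources used here. In the deposited matrix are RSEM expected counts per gene with no normalization, in which the authors' software divides a read between the genes it fits. The per-sample files hold the same expected counts (largest difference 0.5), and the authors' TPM and transcript lengths, used here to describe genes.

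Expected counts of 32623 gene rows were rounded, without the 92 spike-in rows. Low genes were removed by filterByExpr (count minimum 10), which left 18134. Libraries were scaled by TMM and the genes fitted in edgeR 4.0.16 (R 4.3.3, robust quasi-likelihood) over 28 libraries in 8 groups with a suffix term (19 residual degrees of freedom). CPM uses TMM-scaled library sizes. Standard errors are approximate, computed as the fold change over the root of F. A pair of libraries of a group differed by a chi-square per degree of freedom of 41.4 to 276, so none was a copy of another. Rows with identical counts in every library numbered 107 among those with over 1000 counts, and 0 of them were called. The edgeR p-values set a difference against the spread between libraries within groups, pooled over all 28. Permutation p-values set it against regroupings of the 8 pre-estrus libraries. Both refer to these libraries only.

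Members and lists were chosen with earlier results of these data known. The rule for named genes took the 2 largest and 2 smallest log2 fold changes among called genes with at least 1 CPM and no overlap, in place of genes with symbols. The 35 gene lists (530 entries), cell type markers among them, matched 0 rows and were not tested. Alternatives were other scalings, filters, tests (DESeq2 1.42.0, limma 3.58.1), covariates and sets of libraries. The calculation was tested on simulated data. The fit without BN-Lx replicates 3 and 7a and the test of strain by suffix were added after seeing the data.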

Additional observations from a re-analysis of the deposited data

Results flagged for a closer look

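Values of 20 groups of 4 libraries were searched for a library far from the others of its group, a search in which chance picks out about 1 group in 20. SHR replicate 10 held 4.35% spike-in counts, while the other SHR pre-estrus libraries held 3.34%, 3.34% and 3.18%. ENSRNOG00000019050 had 0.0152 CPM in BN-Lx replicate 7b, from 1 count, and 0 in the other BN-Lx pre-estrus libraries. Where all other libraries of a group hold 0, any count is flagged. This flag therefore says nothing about the size of the value, and the chance rate above does not apply to it.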

How the results depend on the processing

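The number of genes called between strains at pre-estrus (453) was 223 with the 8 pre-estrus libraries alone (94 higher in SHR, with fewer genes and samples fitted), 2488 with b35 libraries alone (1772 higher, 71.2%, against 47.9% in the fit of all libraries), 88 with b37 libraries alone, 210 without BN-Lx replicates 3 and 7a, 699 with DESeq2 and 733 with limma. Of these, 209, 330, 83, 191, 450 and 424 were among the 453. It was 312 to 405 with each pre-estrus library left out in turn, and 370 to 508 under the other scalings, filters and covariates. The stage test, with 0 genes, gave 40 with b35 libraries alone, 1 with b37 libraries alone and 7 with DESeq2, and 0 in the other settings, each left-out library included. The difference in the share of the 8 most abundant genes was -10.01 points in b35 and -1.983 in b37 libraries, -6.939 to -5.022 with each library left out, and -7.849 (exact permutation p = 0.0571) for the most abundant gene alone. The cause of these changes was not tested, apart from the smaller fits named. The 4 genes given by identifier kept their direction and their call in each setting that gave a value. No paired analysis was possible because the SHR and BN-Lx pre-estrus libraries share no replicate number. Depth limits the folds of genes with few or no counts in 1 strain.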
